A study of Mus musculus with 6 samples.

Results

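Scavenger receptors bind modified lipoproteins, bacterial surfaces, dying cells and cell debris and take them into the macrophage. They share this broad ligand range rather than a common fold, and are sorted into classes by their domains. In a lesion of the central nervous system, where macrophages clear myelin and dead cells, they are among the uptake receptors, and *Cd68* and *Msr1* are widely used to mark phagocytic macrophages. Class A receptors (*Msr1*, *Marco*, *Colec12*) carry a collagen-like stalk, class B (*Scarb1*) handles high-density lipoprotein, class E (*Olr1*) is a C-type lectin for oxidized LDL, *Stab1* is a large endocytic receptor of class H, *Lrp1* is a large member of the LDL receptor family, *Cd68* is a glycoprotein of late endosomes and lysosomes, and *Cd5l* is a secreted protein built from the cysteine-rich domains that *Msr1* and *Marco* also carry.

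The transcripts of these 9 genes, picked by name, were followed in RNA-seq values of bone marrow-derived macrophages (BMDMs). All 9 were found among the 55335 Ensembl genes of the table, and all 9 reached the mean of 0.5 FPKM (a count of fragments divided by transcript length in kilobases and by the depth of the library) over the libraries that made a gene one of the 13367 tested. BMDMs of WT genotype were grown for 7 days in M-CSF at 25 ng/ml and co-cultured for 24 h with neutrophils that had been isolated by magnetic sorting from contused mouse spinal cord at 3 dpi (days post-injury). By their labels, the neutrophils came from *Cd177* WT mice for 3 libraries and from *Cd177* KO (*Cd177*-/-) mice for the other 3; the study's mice were males, and its C57BL/6 mice were adults of 8 weeks. Whether neutrophils of several mice were pooled is not given in the sources used here. Macrophages were then sorted as Ly6G-negative cells. The comparison asks whether the genotype of the neutrophils goes with a different level of these transcripts in the macrophages. The labels do not say whether the replicates were separate cultures or mice, so p-values measure the spread between these libraries only, and a library of cells without neutrophils was not analysed here.

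A few facts of the libraries touch the results. *Cd177* had 0.544, 0.309 and 0.521 FPKM in WT-labelled libraries, against 1.79, 1.84 and 2.28 FPKM in KO-labelled ones. The sequenced macrophages carry the intact gene, so this does not test their genotype, but the level runs against the labels, and directions are given below between libraries as labelled. Low values implied between 17600000 and 20300000 fragments per library, with no counts in the table. The median log2 fold change of all tested genes, labelled KO minus labelled WT, was 0.19 with FPKM as deposited and 0.00 once the libraries were rescaled by median of ratios (each library divided by its median ratio to the mean library). Replicate 3 of both groups had lower values for long transcripts. Among genes averaging 10 FPKM or more with a transcript of at least 12 kb, the median difference of replicate 3 from replicates 1 and 2 was -1.02 on the log2 scale in WT-labelled libraries and -0.65 in KO-labelled ones, over 14 genes, while in transcripts of 2 to 4 kb it was 0.03 and 0.06.

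The cells carried macrophage transcripts in every library. *Adgre1*, the gene of F4/80, lay between 218 and 309 FPKM and *Csf1r*, the M-CSF receptor, between 232 and 293 FPKM. Of 13 neutrophil markers 10 were tested, of which 9 rose and *Mmp8* fell in KO-labelled libraries. By the same test, described below, 27.1% of all tested genes rose and 10.5% fell, the shares beside every count of this paragraph. The summed level of the neutrophil list ran from 189 to 249.9 FPKM in WT-labelled libraries and from 540.1 to 554 FPKM in KO-labelled ones. *Ly6g*, by which the cells were sorted, had a listed value of 0 in WT-labelled libraries and had 0.403 to 0.66 FPKM in KO-labelled ones. Of 7 B-lineage markers *Cd79b* and *Ighm* were tested and rose, with a summed level of 0.711 to 1.35 against 13.1 to 15.4 FPKM, while *Igkc* was listed at 0 throughout. Their part in the results below was not tested. Endothelial markers, which bear on *Stab1*, *Scarb1* and *Olr1* because endothelium also uses these receptors, summed to 2.64 to 4.37 FPKM in WT-labelled libraries, against 2.20 to 3.46 FPKM in KO-labelled ones, and *Cldn5* reached at most 0.0348 FPKM. Of these 8 markers 2 were tested. *Vwf* did not pass, and *Kdr* fell from a mean of 0.913 FPKM in WT-labelled libraries to 0.187 FPKM in KO-labelled ones (log2 fold change -1.03, adjusted p = 0.0049 from limma). Fibroblast markers summed to 417 to 597 FPKM and 493 to 555 FPKM, most of it *Col1a1*, and of the 6 tested none rose and 3 fell. Of 7 spinal cord markers, *Mog*, *Aqp4* and *Snap25* were listed at 0 in every library. *Mbp*, the only marker tested, had 4.47 to 5.79 FPKM in WT-labelled libraries, against 5.58 to 6.89 FPKM in KO-labelled ones, and did not pass.

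In the libraries labelled KO, 4 of the 9 genes rose (*Stab1*, *Scarb1*, *Cd5l* and *Colec12*), 3 fell (*Olr1*, *Marco* and *Msr1*) and *Cd68* and *Lrp1* did not pass, by limma on log2(FPKM + 0.5) with Benjamini-Hochberg adjustment over all tested genes at 0.05. Of all tested genes, 27.1% rose and 10.5% fell by the same rule, 37.6% in all. With median-of-ratios scaling 3 of the 9 rose and 3 fell, and the shares of all tested genes were 16.1% and 16.6%. The groups did not overlap in 5 members that were higher and 3 that were lower in KO-labelled libraries, where 37.5% and 14.4% of all tested genes were so, 51.9% in all. With the study's rule, a fold change above 2 with an unadjusted p-value under 0.05, *Stab1*, *Scarb1* and *Cd5l* were higher and *Olr1* and *Marco* lower, against 6.68% and 4.43% of all tested genes, 11.1% in all. The study set these cut-offs on DESeq2 results, whereas here and below they were set on the limma fit to log2(FPKM + 0.5). The median log2 fold change over the 9 genes was 0.34. A bulk library cannot tell fewer cells that carry a transcript from less of it per cell.

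**Figure D1:**
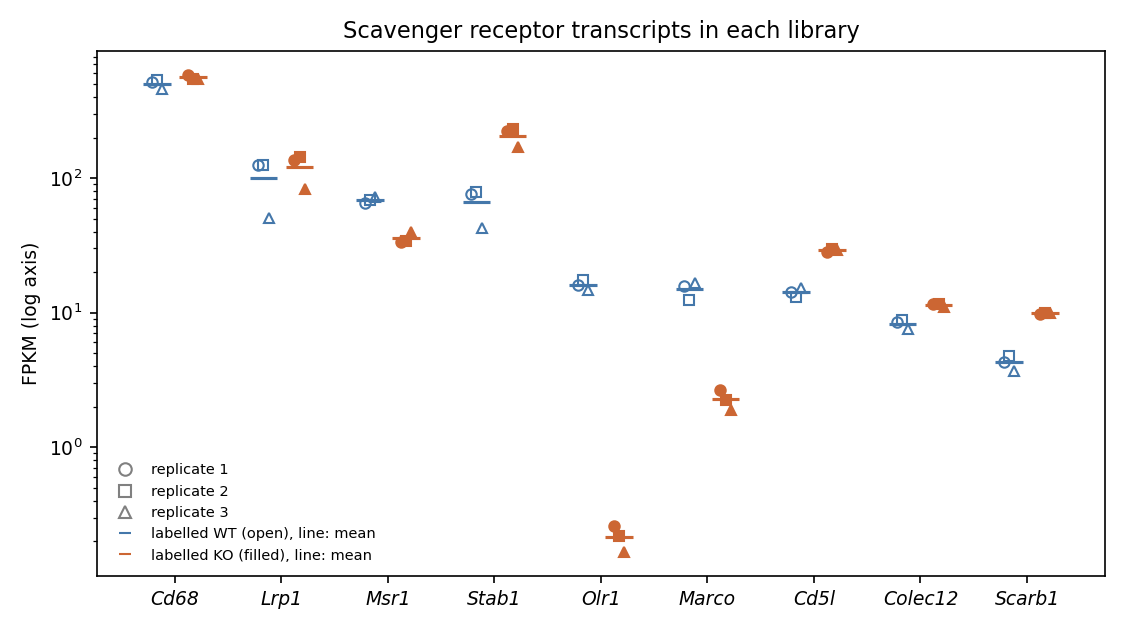
FPKM (log axis) of the 9 scavenger receptor genes in each library, ordered by their mean over the libraries labelled WT; open blue symbols are libraries labelled WT, filled orange symbols libraries labelled KO, symbol shapes are replicate numbers and lines are group means. *Olr1*, *Marco* and *Cd5l* lie together between 12.5 and 17.5 FPKM in WT-labelled libraries and apart in KO-labelled ones, and replicate 3 is the lowest point of *Lrp1* and *Stab1* in both groups.

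The sequences before the start sites of the 2 genes with the deepest falls and of 2 that rose are shown, since these genes moved in opposite directions. RefSeq windows (GRCm38.p6) were matched for 6 members, *Marco*, *Cd5l*, *Olr1*, *Lrp1*, *Cd68* and *Stab1*. The names *Msr1*, *Scarb1* and *Colec12* were not matched. The 250 bases upstream of the start are written 5′ to 3′ on the strand of the gene, with every match to a searched motif, on either strand, in capitals. The window of *Olr1* lies at chr6:129507166-129507415 (minus strand), of *Marco* at chr1:120505025-120505274 (minus strand), of *Stab1* at chr14:31168642-31168891 (minus strand) and of *Cd5l* at chr3:87357631-87357880 (plus strand).
Olr1: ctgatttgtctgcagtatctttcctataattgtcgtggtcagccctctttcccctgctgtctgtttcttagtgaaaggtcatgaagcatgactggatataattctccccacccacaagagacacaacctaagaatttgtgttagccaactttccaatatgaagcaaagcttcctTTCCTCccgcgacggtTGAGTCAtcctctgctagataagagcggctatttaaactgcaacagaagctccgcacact
Marco: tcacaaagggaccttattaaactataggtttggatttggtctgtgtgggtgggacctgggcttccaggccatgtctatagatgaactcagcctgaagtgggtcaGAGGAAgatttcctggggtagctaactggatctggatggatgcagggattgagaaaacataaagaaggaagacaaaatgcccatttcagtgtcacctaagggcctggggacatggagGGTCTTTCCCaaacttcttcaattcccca
Stab1: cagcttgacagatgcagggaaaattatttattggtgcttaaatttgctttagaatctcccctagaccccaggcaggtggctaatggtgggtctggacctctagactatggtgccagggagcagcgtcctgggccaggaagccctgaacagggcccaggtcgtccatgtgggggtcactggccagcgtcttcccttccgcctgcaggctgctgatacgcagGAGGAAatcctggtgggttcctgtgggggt
Cd5l: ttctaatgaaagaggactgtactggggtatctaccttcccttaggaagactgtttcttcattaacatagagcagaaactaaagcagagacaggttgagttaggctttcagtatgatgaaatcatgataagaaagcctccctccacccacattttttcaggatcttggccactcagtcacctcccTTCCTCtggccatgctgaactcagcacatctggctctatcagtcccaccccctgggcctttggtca

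The letters GAGGAA, a core that PU.1 (*Spi1*), the macrophage lineage factor, can bind, were in the windows of *Olr1*, *Marco*, *Stab1*, *Cd5l* and *Cd68*, in 5 of the 6, and in 23.3% of all 32851 windows of this length. They were thus present in genes that rose and in genes that fell. TGANTCA, the AP-1 motif, was in the windows of *Olr1*, beginning 60 bases before the start, and of *Cd68*, and in 6.75% of all windows. An NF-kB pattern was in that of *Marco* (17.6% of all windows), TTGCNNAA, a C/EBP pattern, in that of *Cd68* (9.56%) and TGACNNNGC, an antioxidant element, in that of *Lrp1* (10.2%). The interferon-stimulated element (2.98% of all windows), the LXR element (0.0152%), TGCTGAC (MAF half-site, 3.81%) and TCACNCCAC (sterol element, 1.05%) were in none of the 6. TGANTCA and TGACNNNGC can share bases in other windows. These matches describe letters and not bound sites.

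*Olr1* (LOX-1, the lectin-like receptor for oxidized LDL; ENSMUSG00000030162, chr6:129485244-129507165; names and positions are those of GENCODE M21 on GRCm38) had the deepest fall. It had 16.0, 17.5 and 14.6 FPKM in WT-labelled libraries, against 0.261, 0.217 and 0.167 FPKM in KO-labelled ones. Every library labelled KO was far below every library labelled WT. The group means were 16.0 ± 1.43 and 0.215 ± 0.0470 FPKM (SD, n = 3 each), 74.7-fold lower in KO-labelled libraries, and the log2 fold change was -4.53 (standard error 0.11, 95% confidence interval -4.80 to -4.26, adjusted p = 1.86e-06 from limma). The pseudocount of 0.5 exceeds the values labelled KO and so sets part of this fold change, which was -5.69 with a pseudocount of 0.1 and -3.81 with 1. If 1 step of the low values is 1 fragment, *Olr1* rested on 941 to 1129 fragments per library labelled WT and on 11 to 16 per library labelled KO. It went from the 79.5th percentile of tested genes to the 0.5th. Its mean in KO-labelled libraries was under the 0.5 FPKM asked over all libraries, so *Olr1* was tested through its WT-labelled values. Genes that low in both groups were left out, so the filter sets part of the rank in KO-labelled libraries.

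*Marco* (macrophage receptor with collagenous structure, a class A receptor for bacteria and particles; ENSMUSG00000026390, chr1:120474538-120505024) had 15.8, 12.5 and 16.5 FPKM in WT-labelled libraries, against 2.66, 2.26 and 1.90 FPKM in KO-labelled ones. The groups were well apart, with a spread inside each group that was small beside the gap. *Marco* was 6.58-fold lower by the group means, and the log2 fold change was -2.48 (standard error 0.15, 95% confidence interval -2.83 to -2.12, adjusted p = 4.83e-05 from limma).

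*Msr1* (macrophage scavenger receptor, the class A receptor for acetylated and oxidized LDL; ENSMUSG00000025044, chr8:39581685-39642673) fell less. It had 65.6, 68.7 and 72.2 FPKM in WT-labelled libraries, against 33.4, 34.3 and 40.0 FPKM in KO-labelled ones. All libraries labelled KO were below the lowest labelled WT, and *Msr1* lay at the 95.4th and 90.8th percentile of tested genes by level. The group means were 68.8 ± 3.29 and 35.9 ± 3.62 FPKM (SD, n = 3 each), and the log2 fold change was -0.93 (standard error 0.10, 95% confidence interval -1.16 to -0.70, adjusted p = 0.000516 from limma). This lay under the study's limit of a fold change above 2, as it did with TPM (-0.92) and quantile normalization (-0.94). *Msr1* was past that limit with median-of-ratios (-1.15) and upper-quartile scaling (-1.02) and with the length trend removed (-1.14).

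*Colec12* (a class A receptor with a collagen stalk and a C-type lectin head, best known from endothelium and stroma; ENSMUSG00000036103) was higher, unlike *Msr1* and *Marco*. It had 8.54, 8.79 and 7.52 FPKM in WT-labelled libraries, against 11.6, 11.6 and 11.0 FPKM in KO-labelled ones. The groups did not overlap, but the gap was narrow. The log2 fold change was 0.44 (standard error 0.09, 95% confidence interval 0.23 to 0.66, adjusted p = 0.00956 from limma). With median-of-ratios scaling it was 0.24 and did not pass (adjusted p = 0.0784 from limma), so this rise depends on how the libraries are scaled. With the trend on transcript length removed it was 0.21 (adjusted p = 0.132 from limma). That fit also takes out differences in overall level between libraries, so it rescales them as well.

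*Stab1* (stabilin-1, an endocytic receptor of macrophages and sinusoidal endothelium that takes up SPARC and other ligands; ENSMUSG00000042286, chr14:31139013-31168641) had the largest rise. It had 76.6, 78.6 and 42.7 FPKM in WT-labelled libraries, against 223, 230 and 169 FPKM in KO-labelled ones. Replicate 3 was the lowest in each group, yet the lowest library labelled KO had over 2 times the level of the highest labelled WT. The log2 fold change was 1.68 (standard error 0.25, 95% confidence interval 1.08 to 2.28, adjusted p = 0.00258 from limma). Without replicate 3 of both groups it was 1.54, with a standard error of 0.04, and with the length trend removed 1.44, with the call kept in both. The ratio of the libraries labelled KO to those labelled WT was 2.91 for replicates 1 and 2 and 3.96 for replicate 3. *Stab1* and *Nt5dc2* overlap by 112 bases on opposite strands, and *Nt5dc2* had 29.4 to 35.5 FPKM in WT-labelled libraries, against 41.6 to 44.2 FPKM in KO-labelled ones.

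*Scarb1* (SR-BI, the receptor that takes cholesterol esters from high-density lipoprotein; ENSMUSG00000037936, chr5:125277087-125341094) was the lowest of the 9 in WT-labelled libraries and rose. It had 4.31, 4.79 and 3.69 FPKM in WT-labelled libraries, against 9.77, 10.01 and 9.86 FPKM in KO-labelled ones. The libraries labelled KO were close together and all above those labelled WT. *Scarb1* was 2.32-fold higher by the group means, and the log2 fold change was 1.13 (standard error 0.11, 95% confidence interval 0.87 to 1.39, adjusted p = 0.000375 from limma). *Scarb1* still passed the test, but under the study's limit of a fold change above 2, with median-of-ratios scaling (0.93), quantile normalization (0.97) and the length trend removed (0.93).

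*Cd5l* (AIM, the apoptosis inhibitor of macrophages, a secreted protein and known target of the LXR receptors; ENSMUSG00000015854, chr3:87357881-87371073) had 14.2, 13.0 and 15.1 FPKM in WT-labelled libraries, against 28.2, 29.6 and 29.1 FPKM in KO-labelled ones. Each library labelled KO was above all of those labelled WT. *Cd5l* was 2.05-fold higher by the group means, and the log2 fold change was 1.02 (standard error 0.09, 95% confidence interval 0.81 to 1.22, adjusted p = 0.000216 from limma). After scaling by upper quartiles (0.93), quantile normalization (0.98), removal of the length trend (0.83) or median-of-ratios scaling (0.80), the change passed the test but lay under the study's limit of a fold change above 2.

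*Cd68* (macrosialin; ENSMUSG00000018774, chr11:69664213-69666153) was the most abundant of the 9 and moved little. It had 517, 537 and 456 FPKM in WT-labelled libraries, against 587, 547 and 547 FPKM in KO-labelled ones. The libraries labelled KO lay just above the others. The log2 fold change was 0.16 (standard error 0.09, 95% confidence interval -0.07 to 0.38, adjusted p = 0.233 from limma), and with median-of-ratios scaling it was -0.06. *Cd68* was thus given no direction.

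*Lrp1* (LDL receptor-related protein, an endocytic receptor for apolipoprotein E, protease complexes and myelin debris; ENSMUSG00000040249, chr10:127538161-127621148) has the longest transcript of the 9, with 14888 bases. It had 125, 125 and 50.5 FPKM in WT-labelled libraries, against 136, 142 and 82.6 FPKM in KO-labelled ones. The groups overlapped because replicate 3 lay far below replicates 1 and 2 in both, at 0.405 and 0.594 times their mean. The log2 fold change was 0.34 (standard error 0.39, 95% confidence interval -0.59 to 1.26, adjusted p = 0.53 from limma). It was -0.09 without WT replicate 3 and 0.16 without replicate 3 of both groups, where the smaller spread let it pass (adjusted p = 0.0373 from limma). With the length trend removed it was 0.06 (adjusted p = 0.823 from limma), so *Lrp1* was given no direction either.

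**Figure D2:**
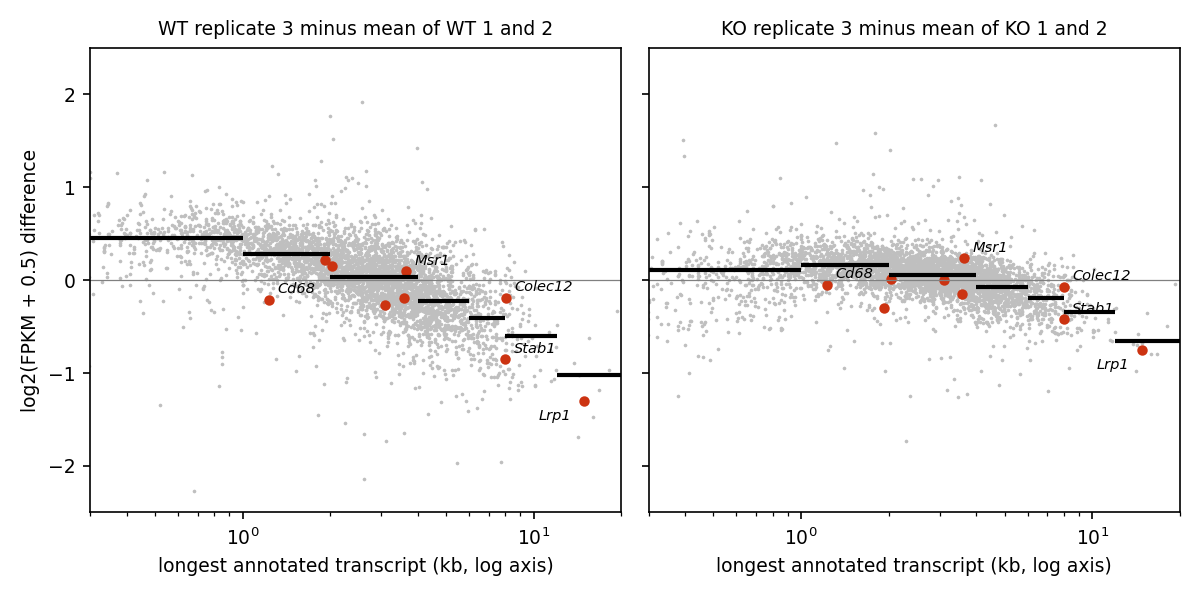
Difference of replicate 3 from the mean of replicates 1 and 2 in log2(FPKM + 0.5), against the longest annotated transcript (kb, log axis), in WT-labelled libraries (left) and labelled KO (right), for genes that averaged 10 FPKM or more (grey), the 9 members (red) and the median of each length bin (black lines); 63 of 4289 genes lie outside the axes. The medians fall with length to -1.02 and -0.65 in the longest bin, where *Lrp1* lies at -1.30 and -0.75.

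**Figure D3:**
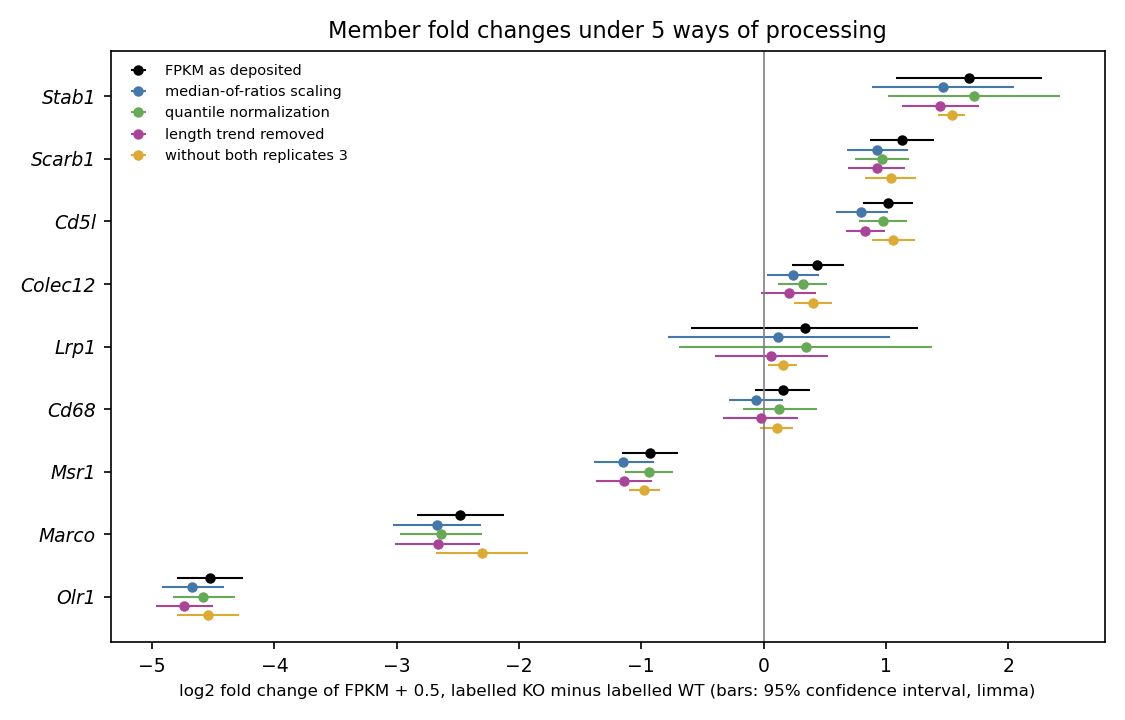
Log2 fold change of FPKM + 0.5 (x axis, labelled KO minus labelled WT) of each member with its 95% confidence interval from limma, as deposited and under 4 other ways of processing (colours). *Olr1*, *Marco* and *Msr1* stay below 0 and *Stab1*, *Scarb1* and *Cd5l* above it in all 5, while the intervals of *Cd68* and, in 4 of them, *Lrp1* reach across 0. That of *Colec12* reaches across 0 with the length trend removed (-0.02 to 0.43).

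An exact permutation test of each gene over the 20 arrangements of the labels gave p = 0.1 for the 8 members whose groups did not overlap, the smallest p that 3 libraries against 3 allow, and p = 0.5 for *Lrp1* (two-sided).

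The order of the 9 levels differed between the groups. In the libraries labelled WT it ran *Cd68*, *Lrp1*, *Msr1*, *Stab1*, *Olr1*, *Marco*, *Cd5l*, *Colec12*, *Scarb1*. There, *Lrp1*, *Msr1* and *Stab1* overlapped in range, and so did *Olr1*, *Marco* and *Cd5l*, while *Colec12* and *Scarb1* stood apart. In the libraries labelled KO the order was *Cd68*, *Stab1*, *Lrp1*, *Msr1*, *Cd5l*, *Colec12*, *Scarb1*, *Marco*, *Olr1*, and no neighbours overlapped. *Olr1*, *Marco* and *Cd5l*, whose means differed by a factor of 1.14 in WT-labelled libraries, spanned a factor of 135 in KO-labelled ones. *Stab1* and *Msr1*, which overlapped in WT-labelled libraries, were at 207 and 35.9 FPKM on average in KO-labelled ones.

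A level given as a share of *Cd68* in the same library does not depend on the scaling between libraries. *Stab1* was at 14.8%, 14.6% and 9.36% of *Cd68* in WT-labelled libraries and at 37.9%, 42.0% and 30.9% in KO-labelled ones. *Msr1* went the other way, from 12.7%, 12.8% and 15.8% to 5.68%, 6.26% and 7.32%. *Olr1* was at 3.10%, 3.25% and 3.21% and at 0.0444%, 0.0396% and 0.0305%. *Colec12* was at 1.65%, 1.64% and 1.65% in WT-labelled libraries and at 1.98%, 2.12% and 2.01% in KO-labelled ones, so its groups were apart on this scale as well. Such a share also carries any change of *Cd68* itself. The part of all tested genes that is apart on this scale was not computed, and as deposited it was 51.9%. *Lrp1* overlapped, with 11.1% to 24.1% and 15.1% to 26.0%.

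**Figure D4:**
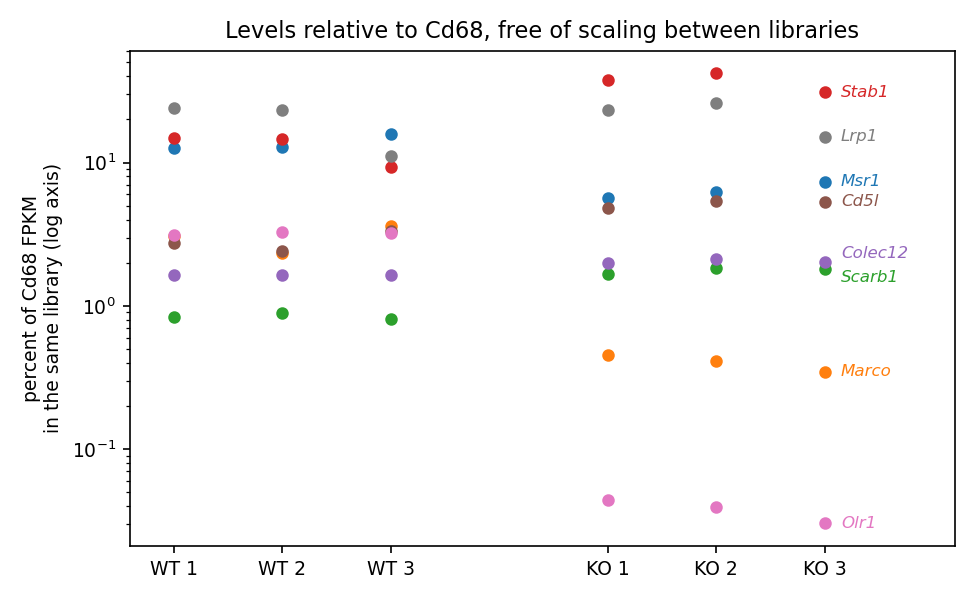
FPKM of 8 members as a percent of the *Cd68* FPKM of the same library (log axis), one column of points per library. *Stab1*, *Cd5l*, *Scarb1* and *Colec12* are higher and *Msr1*, *Marco* and *Olr1* lower in the 3 libraries labelled KO than in any labelled WT, and *Lrp1* overlaps.

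The genes closest to the largest rise and the largest fall over the 6 libraries were picked by the root mean square difference of their centred log2(FPKM + 0.5), among 4285 other genes averaging 10 FPKM or more. Nearest to *Stab1* were *Cd93* (0.0358), a receptor of phagocytes and endothelium, *Cd300ld5* (0.0388) and *Cd300ld4* (0.0523). *Cd93* had 22.9, 23.4 and 13.2 FPKM in WT-labelled libraries, against 71.8, 71.5 and 52.0 FPKM in KO-labelled ones, with the low replicate 3 that *Stab1* shows. *Cd300ld5* and *Cd300ld4* are closely related copies whose reads may be shared, so their separate values are uncertain. Their transcripts have 852 bases, yet replicate 3 was low in them too. *Cd300ld5* had 22.3, 23.4 and 12.0 FPKM in WT-labelled libraries, against 66.4, 69.6 and 47.2 FPKM in KO-labelled ones. Among genes under 1000 bases the median difference of replicate 3 was 0.45 and 0.11. What lowers replicate 3 in these genes was not tested. Nearest to *Olr1* were *Slc7a11* (0.0808), the cystine transporter, and the interferon-induced genes *Mx1* (0.130) and *Usp18* (0.158). *Slc7a11* had 41.5, 44.7 and 33.7 FPKM in WT-labelled libraries, against 1.45, 1.41 and 1.28 FPKM in KO-labelled ones. With 2 groups in 6 libraries, any gene with a like fold change scores well, so these are descriptions.

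The other receptors of the scavenger classes moved in both directions too. Of 17 genes, 11 were tested, of which 4 rose and 5 fell, with a median log2 fold change of 0.21. Of all tested genes 27.1% rose and 10.5% fell, with a median of 0.19. With median-of-ratios scaling the list still had 4 and 5, where the shares of all tested genes were 16.1% and 16.6%. *Mrc1*, the mannose receptor, had 28.3, 29.4 and 26.3 FPKM in WT-labelled libraries, against 225, 223 and 213 FPKM in KO-labelled ones (log2 fold change 2.96, adjusted p = 2.08e-06 from limma). *Cd163*, the hemoglobin-haptoglobin receptor, had 0.0820 to 0.166 FPKM and 2.42 to 3.27 FPKM (log2 fold change 2.46, adjusted p = 5.27e-05 from limma). The pseudocount of 0.5 exceeds the WT-labelled values of *Cd163* and sets part of this fold change. By the group means *Cd163* was 23.5-fold higher in KO-labelled libraries and *Mrc1* 7.89-fold. *Clec7a* (dectin-1, the receptor for fungal glucans) fell from 596 ± 28.3 to 109.8 ± 4.54 FPKM (SD, n = 3 each). *Cxcl16*, a transmembrane chemokine that binds oxidized LDL, fell from 132 ± 2.103 to 35.1 ± 2.12 FPKM (SD, n = 3 each). *Cd36*, the class B receptor for oxidized LDL and fatty acids, was the most abundant receptor of the list and fell by 0.46 on the log2 scale, from 793 ± 59.7 to 576 ± 20.7 FPKM (SD, n = 3 each), while *Scarb1* of the same class rose. *Cd44* fell by 0.41 (adjusted p = 0.0354 from limma), a call that was lost when any 1 library other than WT replicate 3 was left out (adjusted p from 0.0603 to 0.114).

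In the LDL receptor family beside *Lrp1*, 11 of 12 genes were tested, of which 5 rose and 1 fell (median log2 fold change 0.51), against 27.1% and 10.5% of all tested genes. With median-of-ratios scaling 4 rose and 1 fell, against 16.1% and 16.6%. *Sorl1*, a sorting receptor, rose from 1.16 ± 0.319 to 5.53 ± 1.21 FPKM (SD, n = 3 each) and *Lrp5*, a Wnt co-receptor, from 2.92 ± 1.09 to 9.02 ± 1.28 FPKM (SD, n = 3 each). Their log2 fold changes were 1.85 and 1.52 (adjusted p = 0.000751 and 0.00436 from limma), and both had their lowest value of each group in replicate 3, as *Lrp1* did. *Lrp12* fell by 0.35 (adjusted p = 0.0462 from limma), a call that was lost when any 1 library other than WT replicate 3 was left out (adjusted p from 0.0861 to 0.127).

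Among the proteins that serve these receptors, *Lrpap1*, the chaperone that shields LDL receptor family members from ligands during folding, fell from 82.5 ± 0.679 to 31.3 ± 0.382 FPKM (SD, n = 3 each; log2 fold change -1.38, adjusted p = 2.04e-05 from limma), while its client *Lrp1* did not pass. *Dab2*, an endocytic adaptor of the family, rose from 28.4 ± 7.30 to 71.5 ± 6.66 FPKM (SD, n = 3 each), and *Gulp1*, an engulfment adaptor, from 0.944 ± 0.112 to 2.51 ± 0.239 FPKM (SD, n = 3 each). Of the 5 adaptors and chaperones tested, 2 rose and 1 fell, with a median of 0.17, against 27.1% and 10.5% of all tested genes.

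All 7 ligands were tested, with 2 that rose, 3 that fell and a median of 0.10, against 27.1% and 10.5% of all tested genes. *Lpl*, lipoprotein lipase, rose from 71.4 ± 5.63 to 255 ± 26.1 FPKM (SD, n = 3 each; log2 fold change 1.83), and *Plau*, urokinase, rose by 0.52. *Calr*, calreticulin, which *Lrp1* binds on dying cells, fell from 669 ± 22.6 to 273 ± 9.77 FPKM (SD, n = 3 each; log2 fold change -1.29). *Thbs1*, thrombospondin-1, fell by 0.56 (adjusted p = 0.0265 from limma), but not when any 1 library other than WT replicate 3 was left out (adjusted p from 0.0632 to 0.0874). *Sparc*, the ligand of *Stab1*, had 201 to 226 FPKM in WT-labelled libraries, against 210 to 243 FPKM in KO-labelled ones and did not pass. *Apoe*, the main ligand of *Lrp1*, varied most, with 1975, 864 and 2320 FPKM in WT-labelled libraries, against 2959, 1695 and 1162 FPKM in KO-labelled ones, and the groups overlapped.

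Of 11 transcription factors tied to these receptors, 4 rose and 1 fell (median 0.01), against 27.1% and 10.5% of all tested genes. With median-of-ratios scaling 3 rose and 3 fell, against 16.1% and 16.6%. *Pparg*, the lipid-sensing nuclear receptor, rose from 2.40 ± 0.324 to 13.4 ± 0.347 FPKM (SD, n = 3 each; log2 fold change 2.27) and *Maf* from 15.7 ± 0.997 to 59.5 ± 1.77 FPKM (SD, n = 3 each; log2 fold change 1.89). *Cebpb* fell from 477 ± 87.6 to 135 ± 24.7 FPKM (SD, n = 3 each; log2 fold change -1.82). *Spi1* had 88.1 to 100.5 FPKM in WT-labelled libraries, against 95.3 to 113 FPKM in KO-labelled ones, and neither it nor *Cebpa* passed. *Nfe2l2*, the gene of NRF2, rose by 0.43 as deposited and did not pass with median-of-ratios scaling (0.22).

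**Figure D5:**
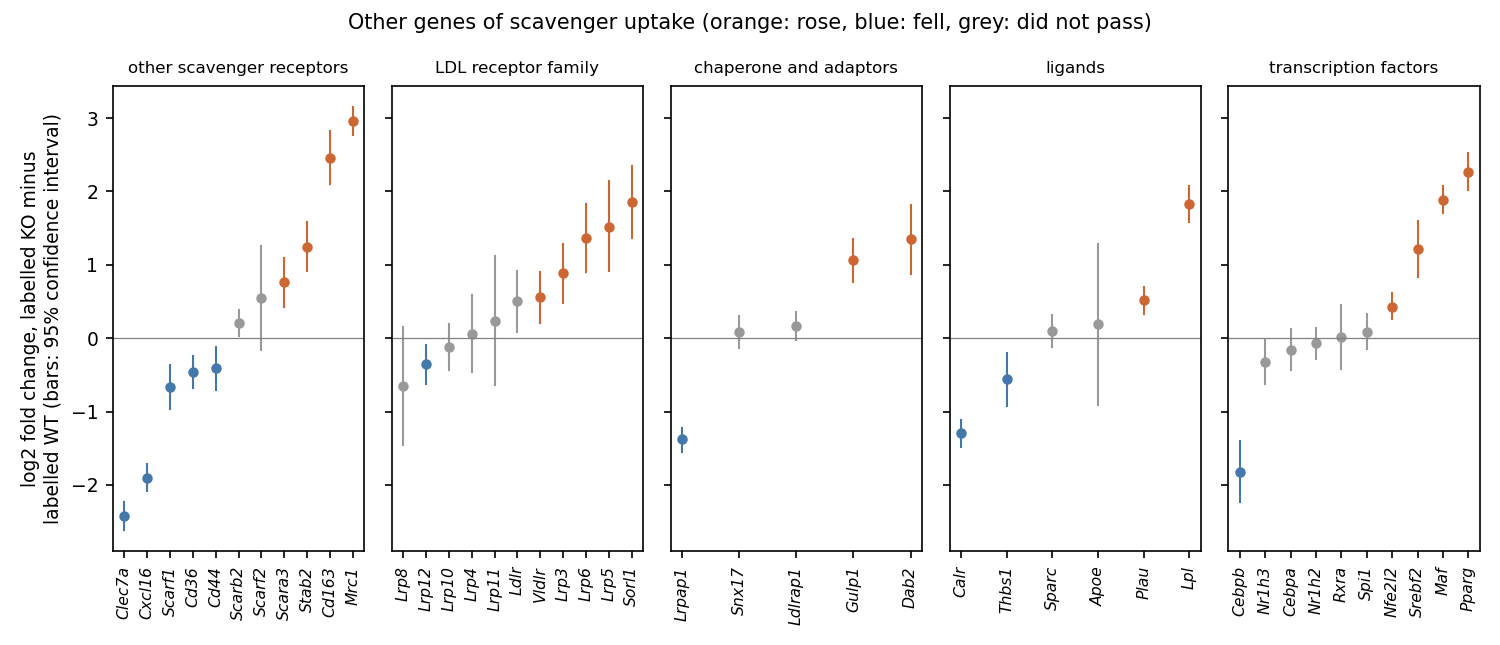
Log2 fold change of FPKM + 0.5 (labelled KO minus labelled WT) with 95% confidence intervals from limma for tested genes of 5 lists: other scavenger receptors, LDL receptor family, chaperone and adaptors, ligands, and transcription factors. Orange genes rose, blue genes fell and grey genes did not pass; each list holds both directions, from *Clec7a* at -2.43 to *Mrc1* at 2.96.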

How the data were processed

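The deposited table gives FPKM, computed by the authors, for 55335 Ensembl genes in each of 6 libraries, with every column matched to a sample by its title. The submitters' processing notes name fastp 0.17.1, HISAT2 2.1.0, DESeq2 1.18.1 and R 3.4.3; the quantification tool, annotation and genome build are not given in the sources used here, and labels and methods name different library kits and sequencers. Symbols, positions and transcript lengths came from GENCODE M21 (99.7% of identifiers matched). The test was limma 3.58.1 in R 4.3.3 (eBayes with trend, two-sided, no covariate) on log2(FPKM + 0.5), which understates changes of low genes, over 13367 genes averaging 0.5 FPKM or more, with Benjamini-Hochberg adjustment over these. FPKM are relative to the library total, so abundant genes shift all others. Whole fragments could not be recovered (30.0% to 32.6% of low values within 0.1 of a whole multiple of a step, 20% by chance), so no count test was run. The test was checked on simulated data. Named genes are the members, the 2 largest rises and falls of each list among genes that passed, list genes averaging 50 FPKM or more, defining markers, and the 3 nearest genes of 2 members. Of the genes this rule names, 2 are not reported here, though the counts of their lists include them. *Nt5dc2* and the neighbours of members were picked with their values in view. The members and lists were chosen with earlier results of these data known. Figures used Python 3.11.15 with matplotlib 3.10.9.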

Additional observations from a re-analysis of the deposited data

How the results depend on the processing

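Each member was refitted under 19 alternatives, 2 of them chosen after seeing the data (both replicates 3 left out, length trend removed). Removal of the length trend also rescales the libraries, so its shifts are not those of transcript length alone. *Olr1*, *Marco*, *Msr1*, *Stab1*, *Scarb1* and *Cd5l* kept direction and call in all 19. *Colec12* did not pass with median-of-ratios scaling (0.24) or with the length trend removed (0.21). *Cd68* changed sign, with no call, in the same fits (-0.06 and -0.02). *Lrp1* was -0.09 without WT replicate 3 and passed without both replicates 3 (0.16); with single libraries left out it ran from -0.09 to 0.59. Replicate numbers recur in both groups, but the deviations of same-numbered libraries correlated at 0.116, 0.036 and 0.264, and WT replicate 1 correlated best with KO replicate 2 (0.16), so the numbers were not taken as pairs in the main fit. The highest correlation, 0.264, was that of both replicates 3, and each replicate 3 correlated negatively with the other numbers (-0.131 to -0.233). Deviations from a group mean cancel out within the group. The negative values therefore follow in part from the positive one and add nothing of their own. Whether the replicates 3 are tied was not tested. The replicate block changed no member's call: 4 rose and 3 fell, and *Lrp1* had an adjusted p of 0.0914 (limma). With it the standard error went from 0.25 to 0.11 for *Stab1* and from 0.39 to 0.13 for *Lrp1*. Over the 5 lists, 17 of the 45 genes tested rose and 11 fell, against 27.1% and 10.5% of all tested genes. When a gene had to average 5 FPKM, 10 rose, and when no filter was set, 7 fell. Either choice changes which genes are tested, here and over all genes, so neither count is out of the 45. At a fold change above 2 with unadjusted p under 0.05, 5 of the 45 fell, against 4.43% of all tested genes. Over all genes, 3619 rose and 1408 fell; the rises were 1756 with a mean of at least 5 FPKM, 2156 with median-of-ratios scaling, 893 by the study's rule and 2007 at an adjusted p under 0.01, and the falls were 2215 with median-of-ratios scaling, 2671 with the length trend removed, 592 by the study's rule and 922 at an adjusted p under 0.01. With single libraries left out the rises ran from 2442 to 4228 and the falls from 1047 to 1717, and with the replicate block they were 4253 and 1681. The share of calls that were rises went from 72.0% to 49.3% with median-of-ratios scaling. The cause of these shifts was not tested.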

Other observations

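The genes within 100 kb of the members add a few values. *Clec7a* lies 12.5 kb from *Olr1* on chromosome 6 in the C-type lectin cluster and fell too, while *Gabarapl1*, the other tested neighbour, did not pass. Both tested neighbours of *Cd5l* on chromosome 3, *Fcrls* and *Fcrl1*, rose. Of 7 tested neighbours of *Stab1*, 3 rose and none fell, and of 14 around *Cd68*, 3 rose and 1 fell. *Msr1* and *Marco* had no tested neighbour in this window. No test was made of these counts, against 27.1% of all tested genes that rose and 10.5% that fell.

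Macrophage markers were not of 1 direction. Of 8 tested, 3 rose (*Adgre1*, *Mertk* and *C1qa*) and 2 fell, against 27.1% and 10.5% of all tested genes. *Cd14*, the co-receptor for lipopolysaccharide, fell from 1010 ± 150 to 99.4 ± 8.39 FPKM (SD, n = 3 each; log2 fold change -3.33, adjusted p = 6.82e-06 from limma) and *Fcgr1*, the high-affinity Fc receptor, from 121 ± 2.67 to 33.8 ± 0.714 FPKM (SD, n = 3 each). With median-of-ratios scaling 1 of the 8 rose and 2 fell, against 16.1% and 16.6% of all tested genes.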
